A study of Mus musculus with 6 samples.

Results

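The regions described here were places in the genome where reads piled up in both of 2 CUT&Tag profiles of TGF-b and siRNA treated primary mouse cardiac fibroblasts, and were compared with regions where reads piled up in only 1 of the profiles. A region of the T set was kept when its normalized read density in the siRNA library SI-T was at least 5, and a region of the S set when its density in SI-S was at least 5, with the mitochondrial chromosome left out. This kept 76270 of 180104 T regions (42.3%) and 24092 of 52568 S regions (45.8%), which are called dense regions below. Of these, 5054 T regions overlapped 4987 S regions by at least 1 bp, in 5159 pairs, and 71216 regions were T only and 19105 were S only. The members were chosen by their siRNA densities, so the level of these densities and their ratio to TGF-b are given as a description.

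CUT&Tag uses an antibody to bring a transposase to chromatin, so that DNA near the antibody's target is cut and sequenced. The series held 6 libraries of heart-derived primary cardiac fibroblasts, 3 per set and 1 per treatment. The treatments were NC, TGF-b alone, and TGF-b together with an siRNA, which is labelled TGF-b+SiTAZ in the T set and TGF-b+SiSRF in the S set. By their labels the 2 siRNA libraries differed in both the set and the siRNA, and these cannot be told apart in any T against S comparison. With 1 library per group there was no replicate check, and intervals cover counting error only. The labels name no antibody. The study profiled TAZ and SRF, and that the letters T and S stand for them is inferred from its text. That text describes an siRNA against Piezo2, while the labels name TAZ and SRF, and DNA reads cannot check a knockdown. The series' design text also describes a Cre virus used to delete Tet3 in these cells, and no label says whether any of these libraries carried that deletion. DNA reads do not measure expression, so the labelled cell type could not be checked by its markers.

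SRF is a transcription factor that binds the CArG box and, with its actin-sensing MRTF partners, drives genes of the contractile cytoskeleton. TAZ, encoded by Wwtr1, is a coactivator of the Hippo pathway that binds no DNA itself and reaches chromatin mainly through TEAD factors. Both are known to act when fibroblasts turn into matrix-producing myofibroblasts under TGF-b and mechanical load, and they share some target genes.

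Promoters of overlapping pairs are shown first, because promoters were the most frequent class among the pairs. The sequences are the 250 bases before the start site, 5′ to 3′ on the gene's strand, credited to RefSeq with build GRCm38.p6; the deposited regions themselves are on GRCm39. The first 2 belong to genes of the SRF and YAP/TAZ lists. Vcl encodes vinculin of focal adhesions, and Ankrd1 is a widely used YAP/TAZ target. Capitals mark each CArG box and each TEAD letter string GGAATG, on either strand.

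Vcl, chr14:20929148-20929397, plus strand: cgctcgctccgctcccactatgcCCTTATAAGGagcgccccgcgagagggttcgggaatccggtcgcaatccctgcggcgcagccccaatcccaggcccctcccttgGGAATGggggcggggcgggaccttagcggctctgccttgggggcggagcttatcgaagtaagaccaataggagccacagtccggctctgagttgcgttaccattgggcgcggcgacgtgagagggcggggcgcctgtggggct

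Ankrd1, chr19:36119845-36120094, minus strand: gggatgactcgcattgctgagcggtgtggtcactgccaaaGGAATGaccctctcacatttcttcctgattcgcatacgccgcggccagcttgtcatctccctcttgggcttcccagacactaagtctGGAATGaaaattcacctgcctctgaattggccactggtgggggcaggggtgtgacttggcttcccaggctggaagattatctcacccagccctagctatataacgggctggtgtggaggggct

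The Vcl window held 1 CArG box and 1 GGAATG, and the Ankrd1 window held 2 GGAATG and no CArG box. Both were picked because they hold these letters. Of the 29 windows read for listed or top genes, only that of Vcl held a CArG box. In 25 of the 29, Myh9 and Amot among them, neither motif was found. The 29 leave out some listed or top genes with an overlapping promoter pair. Cald1 of the SRF list, Tgfbr1, Dnajb1, Garnl3 and Tspan14 are examples, so these counts hold for the windows read only. The next 3 windows belong to genes with an overlapping promoter pair and were picked because they hold many of the letters that were common at such promoters; Ndufb7, Psmd13, Rps12 and Rpl26, which also had such a pair, hold none of them in their windows. Hsp90b1 encodes a chaperone of the endoplasmic reticulum, H2az2 a histone H2A variant, and Leprot a membrane protein of endosomes. Capitals mark GGGCGG, which SP and KLF factors bind, and CCAAT, which NFY binds, on either strand.

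Hsp90b1, chr10:86705445-86705694, minus strand: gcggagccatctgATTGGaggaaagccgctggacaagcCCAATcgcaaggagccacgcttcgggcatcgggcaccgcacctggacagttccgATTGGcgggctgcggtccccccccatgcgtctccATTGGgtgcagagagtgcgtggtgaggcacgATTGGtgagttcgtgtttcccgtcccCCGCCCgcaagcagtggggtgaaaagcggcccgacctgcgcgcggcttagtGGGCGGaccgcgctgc

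H2az2, chr11:6444444-6444693, minus strand: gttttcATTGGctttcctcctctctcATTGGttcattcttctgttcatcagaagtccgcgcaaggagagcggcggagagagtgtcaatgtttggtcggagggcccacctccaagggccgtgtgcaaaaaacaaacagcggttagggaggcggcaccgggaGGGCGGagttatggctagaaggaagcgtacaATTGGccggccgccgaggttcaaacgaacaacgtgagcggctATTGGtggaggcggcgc

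Leprot, chr4:101647533-101647782, plus strand: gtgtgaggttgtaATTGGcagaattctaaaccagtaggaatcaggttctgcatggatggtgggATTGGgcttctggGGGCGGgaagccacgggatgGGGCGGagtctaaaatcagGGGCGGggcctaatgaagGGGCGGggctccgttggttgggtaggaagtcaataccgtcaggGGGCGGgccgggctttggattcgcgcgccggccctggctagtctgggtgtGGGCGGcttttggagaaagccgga

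The Hsp90b1 window held 5 CCAAT and 2 GGGCGG, the H2az2 window 4 CCAAT and 1 GGGCGG, and the Leprot window 2 CCAAT and 6 GGGCGG. A match of letters is a description and not a bound site.

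Most dense regions lay in only 1 set. The pairs took up 6.63% of dense T regions (95% Wilson interval 6.45 to 6.81) and 20.7% of dense S regions (20.2 to 21.2). Over all regions of the tables, without the density threshold, 4.68% of T regions overlapped an S region and 15.9% of S regions overlapped a T region. The dense T list was 3.17 times as long as the dense S list, so the 2 shares are not comparable with each other. Of the dense S regions, 72.3% lay over no T region of the table at any density, and a further 7.04% lay over T regions of density under 5 only. Of the dense T regions, 92.4% lay over no S region, and 1.01% over S regions of density under 5 only. The pairs were nearly 1 to 1: 4952 T regions had 1 S partner and 102 had more, and the median pair shared 126 bp. Just inside the threshold the lowest T region had a density of 5.24 from 8 reads and the lowest S region 5.09 from 9 reads, and just outside it the highest T region had 4.71 from 7 reads and the highest S region 4.79 from 8 reads.

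Overlapping regions were promoter regions far more often than the regions of either set alone. Here a promoter region is one that the deposited annotation places up to 2 kb upstream of a transcription start. Promoters made up 44.7% of overlapping T regions (43.4 to 46.1) and 44.5% of overlapping S regions (43.1 to 45.9), against 7.74% of T only regions (7.55 to 7.94) and 9.66% of S only regions (9.25 to 10.1). Over all regions they were 7.09% in the T table and 9.79% in the S table. Regions in a 5′ UTR, the transcribed part just after the start, followed the same order, at 8.21% of overlapping T regions and 8.76% of overlapping S regions against 1.09% of T only and 2.33% of S only regions. Introns and regions with no gene went the other way. The gene given for a region need not be the gene whose intron it lies in, and 26.8% of overlapping T and 27.7% of T only intron regions lay in an intron of another gene, as did 26.1% of overlapping S and 28.8% of S only ones. Introns held 19.9% of overlapping T regions and 45.4% of T only regions, and 19.95% of overlapping S regions and 37.8% of S only regions. Regions with no gene were 22.3% of overlapping T against 38.9% of T only, and 21.7% of overlapping S against 43.4% of S only. Exons held 3.50% of overlapping T and 3.93% of T only regions, and 3.77% of overlapping S and 4.34% of S only regions.

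**Figure D1:**
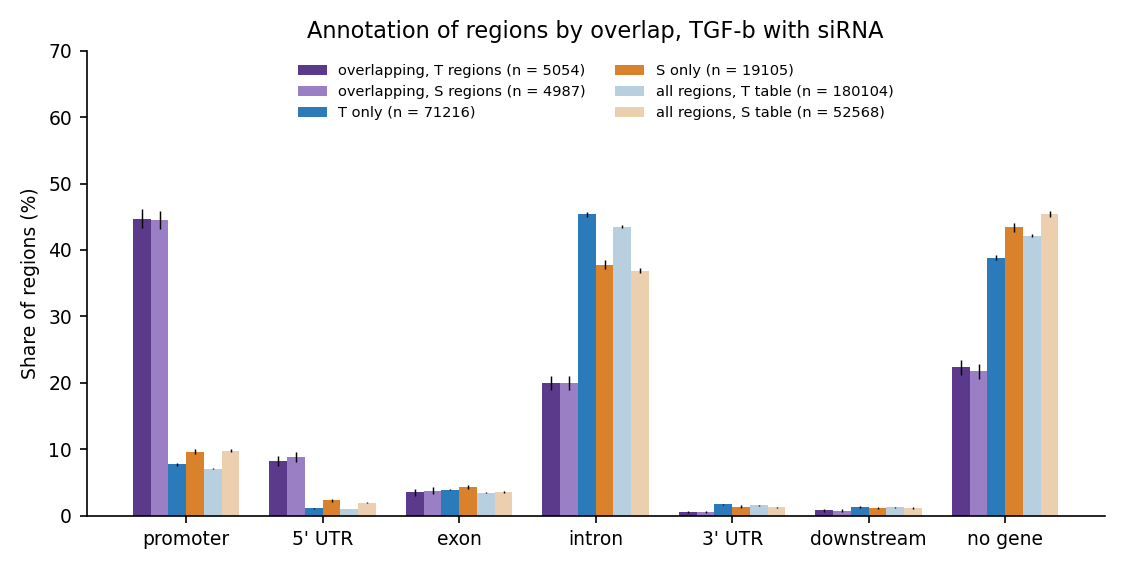
Share of regions (%) in each annotation class, for overlapping regions, regions of 1 set only and all regions of each table; error bars are 95% Wilson intervals and cover counting error only. The overlapping regions stand near 45% in the promoter class, where the other 4 groups are at most 9.79%.

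The promoter regions of pairs also sat closer to the start site. Their centre lay a median of 88 bp upstream in both sets (quartiles 150 and 45 bp for T), and 89.3% of them in T and 89.4% in S lay within 250 bp of a start. T only promoter regions had a median of 316 bp upstream, with 45.9% within 250 bp. S only promoter regions had a median of 133 bp, with 62.5% within 250 bp. Without the annotation classes, a start within 1 kb on either side was found for 56.6% of overlapping T, 10.7% of T only, 57.3% of overlapping S and 14.8% of S only regions. A start within 100 bp was found for 34.0%, 3.48%, 34.9% and 6.32% of these groups. Over all regions the shares within 1 kb were 9.39% in T and 13.4% in S, and within 100 bp 3.36% and 6.26%.

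Read from the other side, 29.1% of dense T promoter regions (28.1 to 30.1) and 54.6% of dense S promoter regions (53.1 to 56.1) were in a pair. For 5′ UTR regions the shares were 34.9% and 49.5%. For introns they were 3.02% and 12.1%, and for regions with no gene 3.92% and 11.6%. Across the autosomes the share ranged from 5.31% on chromosome 6 to 8.32% on chromosome 19 for T and from 16.7% on chromosome 6 to 24.8% on chromosome 19 for S. On the X chromosome it was 3.68% for T and 18.8% for S. Unplaced scaffolds stood apart, with 44 of 85 dense T regions and 36 of 65 dense S regions in a pair.

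Regions with more reads were in a pair more often, and the part that depth plays in this was not tested. Counts here are reads in the 2 kb window in which the authors' density was taken. Of T regions with 10 to 14 reads, 3.63% overlapped an S region, and this was 19.6% at 25 to 49 reads and 76.9% at 100 to under 500 reads. Of S regions the shares were 10.7%, 66.8% and 80.2%, with 84.0% at 50 to 99 reads. Within the same read range promoters still stood above other regions: at 15 to 24 reads 27.3% of T promoter regions (25.6 to 29.1) and 4.98% of other T regions were in a pair, and 54.1% of S promoter regions (51.7 to 56.5) and 21.6% of other S regions. At 50 to 99 reads the S shares were 95.6% for promoters and 72.0% for others. At 100 to under 500 reads the intervals of promoters and others overlapped. For T the shares were 77.4% (64.5 to 86.5) and 76.4% (63.7 to 85.6). For S they were 83.3% (55.2 to 95.3) and 79.7% (68.8 to 87.5). The S promoter share there rests on 12 regions, too few for a comparison.

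**Figure D2:**
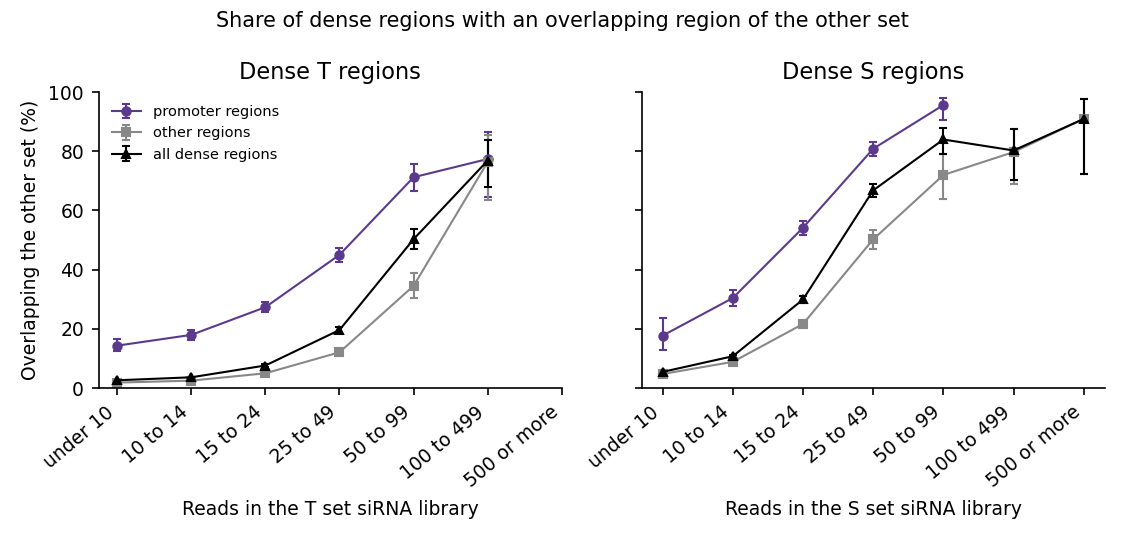
Share of dense regions that overlap a dense region of the other set (%), by the number of reads in the siRNA library of their own set, for promoter regions, other regions and all; error bars are 95% Wilson intervals, and ranges with under 20 regions are not drawn. The shares rise with reads, except that all dense S regions stand at 84.0% at 50 to 99 reads and 80.2% at 100 to under 500. Promoters lie above other regions up to 50 to 99 reads.

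Overlapping regions were denser and wider than regions of 1 set. The median SI-T density was 12.4 in overlapping T regions (quartiles 8.24 and 19.5), 7.62 in T only regions and 4.10 over all T regions. The median SI-S density was 10.2 in overlapping S regions (quartiles 7.68 and 14.7), 6.71 in S only regions and 4.66 over all S regions. In reads these were medians of 20 against 12 in SI-T and 19 against 12 in SI-S. The median width was 221 bp for overlapping T, 81 bp for T only, 171 bp for overlapping S and 106 bp for S only regions. The authors' caller had found a peak in both the TGF-b and siRNA libraries for 52.0% of overlapping T and 5.24% of T only regions. In the S set this was 28.2% of overlapping and 2.88% of S only regions. Over all regions it was 4.21% in T and 3.88% in S. Some windows shared reads, since 32.0% of T only, 10.3% of overlapping T, 8.02% of overlapping S and 8.85% of S only regions lay within 2 kb of another one of their group. These shares depend on the length of each list and are not compared.

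Overlapping T regions held more reads in the TGF-b library than T regions in general, and T only regions held about as many as these. The median TGF-b density of overlapping T regions was 12.7, against 2.56 in T only regions, and medians of 29 and 5 reads lay behind these values. Over all T regions the median was also 2.56, from 5 reads. At most 3 reads were counted with TGF-b in 4.53% of overlapping T regions, 39.8% of T only regions and 39.9% of all T regions. In the S set the TGF-b densities were 8.85 in overlapping and 5.34 in S only regions, from 17 and 10 reads. Over all S regions the median was 5.33, from 10 reads. In log2 of siRNA over TGF-b density the medians were 0.06 for overlapping T, 1.72 for T only, 0.26 for overlapping S and 0.38 for S only regions, beside 0.97 over all T regions and -0.21 over all S regions. Since the siRNA density chose the members, these ratios lean upward by construction and no rise or fall is read from them. Over all T regions 49.7% were at least 2-fold higher with the siRNA and 16.2% at least 2-fold lower, and the shares were 20.2% and 10.7% in overlapping T and 69.9% and 1.25% in T only regions. Over all S regions 15.1% were 2-fold higher and 27.8% lower, and the shares were 16.3% and 2.65% in overlapping S and 24.6% and 3.86% in S only regions. Overlapping promoter regions of the T set had a median log2 ratio of -0.24 and other overlapping T regions one of 0.41. In the S set the 2 medians were 0.20 and 0.31. Promoters were also below other regions in T only (0.69 and 1.77) and over all T regions (0.11 and 1.04). For S only the medians were 0.27 and 0.39, and over all S regions 0.12 and -0.26. The zero of this scale is set by the authors' normalization line: without it the median of overlapping T regions was -0.42, of T only regions 1.25 and of all T regions 0.51.

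**Figure D3:**
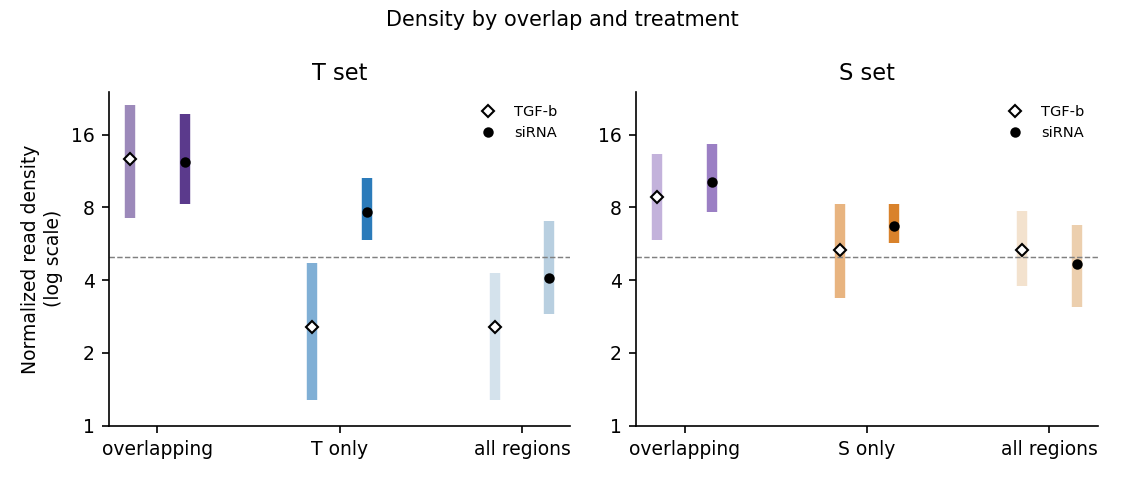
Normalized read density (log scale) in the TGF-b and siRNA libraries of each set; points are medians, thick bars run from the lower to the upper quartile of regions, and the dashed line is the siRNA density of 5 that chose the members. The overlapping T regions have like medians with both treatments (12.7 and 12.4), and T only regions, chosen for a siRNA density of at least 5, have medians of 2.56 and 7.62.

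Most pairs were dense without the siRNA too. In 3745 of the 5159 pairs (72.6%, 71.4 to 73.8) both regions also reached a density of 5 in their TGF-b libraries, and in 331 (6.42%) neither did. The pairs dense in both treatments were promoters in 56.2% of cases, and the other pairs in 15.6%. An NC pair, from the separate tables that hold NC, lay under 1659 pairs (32.2%), and 1565 (30.3%) were dense in all 3 treatments. Of the pairs found by the TGF-b densities in the same tables, 1174 (23.9%) were not pairs by the siRNA densities. The same rule on the TGF-b densities gave 4807 T regions in pairs, which was 13.3% of 36160 dense T regions, and 51.6% of them were promoters. On the NC densities it gave 3569 T regions, 4.496% of 79375, with 37.9% promoters, and on the TGF-b densities of those NC tables it gave 3568 T regions, 6.96% of 51269, with 49.5% promoters. The share for the TGF-b library thus differed between its 2 tables. The dense T lists differed in length, and NC was scaled in other tables, so the shares are set side by side without a ranking.

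Within a pair, densities in the 2 sets were positively related. Across the 5159 pairs the Spearman correlation of SI-T with SI-S density was 0.41 as a description across regions, which share sequence and genomic position and are not replicates. That of the log2 ratio of siRNA to TGF-b was 0.08, and at counts this low nothing is read from it. In 2941 pairs both regions were within 2-fold of TGF-b. Both were at least 2-fold higher in 235 and both lower in 10, T was higher and S lower in 31, and T was lower and S higher in 67. The regions of a pair were annotated to 1 and the same gene in 3833 pairs and had the same class in 4550.

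Among pairs under 500 reads with the same gene in both sets, the 10 densest, 1 per gene, included 4 promoters and 6 introns. Pairs with no gene were left out of this ranking. Each value below is a count of reads in the 2 kb window, not adjusted for library depth, in the order NC, TGF-b and TGF-b with siRNA, and the NC window is that of the overlapping region in the table that holds NC. At the Wipi1 promoter (ENSMUSG00000041895; a protein that binds phosphoinositides in autophagy), T region chromosome 11, 109502205 to 109502803 on GRCm39, the reads were 146, 253 and 205 in the T set and 49, 88 and 103 in the S set. Here NC was lowest in both sets, and siRNA and TGF-b were within 2-fold of each other. At the Leprot promoter (ENSMUSG00000035212), chromosome 4, 101504339 to 101504906, they were 159, 176 and 80 in T and 19, 65 and 103 in S. At Leprot the log2 ratio of siRNA over TGF-b density was -0.63 in T (95% counting interval -1.02 to -0.26) and 0.63 in S (0.19 to 1.08), as values of 1 library each. The promoter of Garnl3, a gene related to Rap GTPase activators, had 155, 267 and 157 reads in T and 50, 82 and 100 in S. The promoter of Tspan14, a tetraspanin, had 59, 135 and 84 reads in T and 20, 67 and 99 in S. In these unadjusted counts all 4 promoters had their T maximum with TGF-b and their S maximum with the siRNA, but in normalized density the T value at Wipi1 was 107 with TGF-b and 123 with siRNA, so that the order turned there.

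The 6 intron pairs were assigned to Sfi1, Actr3b, 2700054A10Rik, Clec11a, Gm13448 and Gm33838, and that of Gm13448 lay in an intron of another gene. In intron 3 of Sfi1 (ENSMUSG00000023764; a centrosome protein), chromosome 11, 3134553 to 3135459, the reads were 196, 148 and 219 in T and 373, 515 and 274 in S. The log2 ratio was 1.06 in T (0.77 to 1.37) and -1.03 in S (-1.24 to -0.82). These ratios too are single-library values of members chosen by the siRNA density, and no change is read from them. Sfi1 also held the most pairs of any gene, 5. In intron 3 of Actr3b (ENSMUSG00000056367; a relative of an actin-nucleating Arp2/3 subunit) the reads were 142, 203 and 227 in T and 243, 326 and 246 in S. In intron 3 of Clec11a (ENSMUSG00000004473; a secreted growth factor) they were 79, 141 and 112 in T and 46, 80 and 106 in S.

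**Figure D4:**
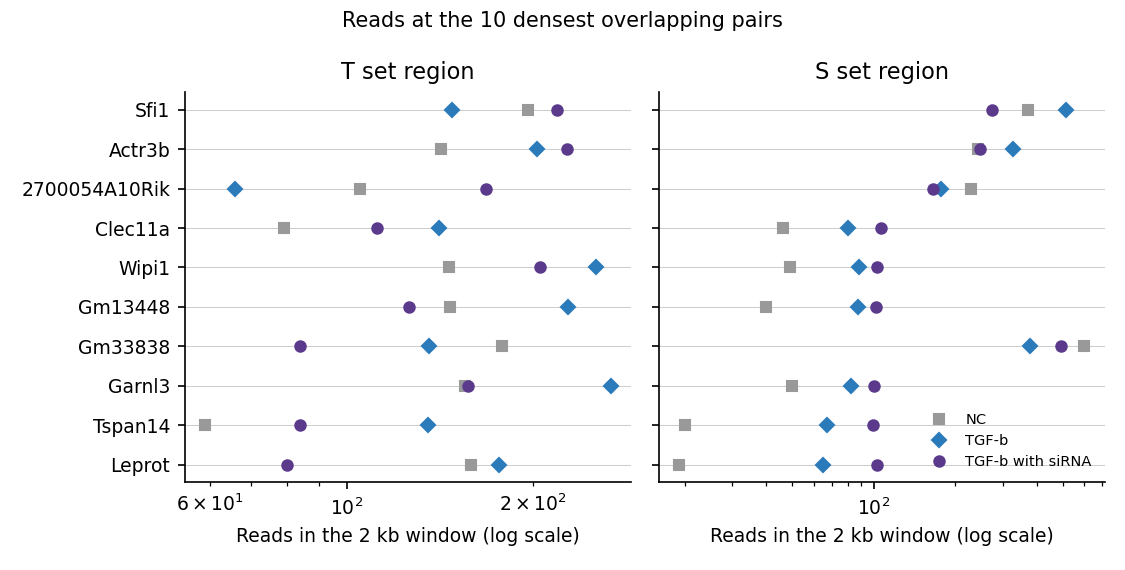
Reads in the 2 kb window (log scale, not adjusted for library depth) of the T and the S region, 1 point per library. Shown are the 10 densest pairs under 500 reads with the same gene in both sets, 1 per gene. The 4 promoters (Wipi1, Garnl3, Tspan14 and Leprot) have their highest unadjusted T count with TGF-b and their highest S count with TGF-b and siRNA; in normalized density the T order turns at Wipi1.

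A few pairs were far deeper than these and lay outside genes. In 24 pairs at least 1 siRNA library held 500 reads or more, and 21 of the 24 T regions were annotated to no gene. The deepest pair, on chromosome 2 from 98496918 to 98497656, held 3776 reads in SI-T and 19623 in SI-S, and 4988 and 20055 with TGF-b. All 10 dense T regions and 20 of 22 dense S regions of this depth were in a pair. Leaving out regions of 500 reads or more left the shares above within their counting intervals. Of the 46 pairs with at least 100 reads in both libraries, 32 had no gene and 4 were promoters.

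Regions with many reads were rare in every group, and within each set their share was lowest among the regions of 1 set only. In the siRNA library, 25 T only (0.035%) and 18 S only regions (0.094%) had 100 reads or more. So did 93 overlapping T (1.84%) and 85 overlapping S regions (1.70%). Over all regions they were 118 in T (0.066%) and 103 in S (0.196%). The densest T only region with a named gene was the promoter of Gm56649, with 149, 136 and 233 reads. Next came an exon region of Neat1 (ENSMUSG00000092274; a long noncoding RNA that builds paraspeckles), with 75 and 150 reads and a log2 ratio of 1.48 (1.10 to 1.89). The promoter of Sp1 (ENSMUSG00000001280), which encodes a factor that binds GGGCGG, was also T only, with 133 NC, 232 TGF-b and 147 siRNA reads. Of the S only regions with a named gene and fewer than 500 reads, the densest, a promoter region of ENSMUSG00000095041, had 134, 152 and 181 reads. The densest S only region of all held 631 reads in SI-S. Zfp788, a zinc finger gene, had an S only 5′ UTR region with 17, 38 and 71 reads.

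The promoter windows of genes with an overlapping promoter pair were rich in G and C and in the letters that SP/KLF and NFY factors bind. The comparison used protein-coding genes and the first 300 base window that the RefSeq table holds for each, from 250 bases before to 50 after the start, and 1402 of 1666 such genes had one (84.2%). Their median GC content was 64.0% against 56.3% over all 17486 promoter windows, which include them, and 61.5% for genes whose T and S promoter regions were both dense but did not overlap. GGGCGG was in 79.7% of their windows (77.6 to 81.8) against 46.3% of all. CCAAT was in 53.0% (50.4 to 55.6) against 39.0% of all. Since GC content differed, the shares were also taken at a GC content of 55% to under 65%, where GGGCGG was in 74.4% (70.7 to 77.8) against 60.3% of all and CCAAT in 61.1% (57.1 to 65.03) against 40.1%. Genes whose T and S promoter regions were both dense but did not overlap had GGGCGG in 58.2% and CCAAT in 38.5% of 91 windows in this GC range.

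The CArG box, the TEAD letters and the AP-1 letters were not more common at these promoters. The CArG box, searched as CC, then 6 bases of A or T, then GG, was in 16 of 1402 windows (1.14%, 0.70 to 1.85) against 1.54% of all promoters. GGAATG was in 10.5% (8.99 to 12.2) against 13.4% of all. TGANTCA, the AP-1 letters, was in 4.28% (3.34 to 5.47) against 7.09%. At a GC content of 55% to under 65% the 3 shares were 1.23%, 11.2% and 4.73%, against 1.44%, 12.4% and 4.93% of all promoters. Both strands were searched, and the 5 motifs were counted separately. The same comparison for genes with a T or an S promoter region only was void, because fewer than 80% of their genes had a window (79.98% and 79.8%).

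**Figure D5:**
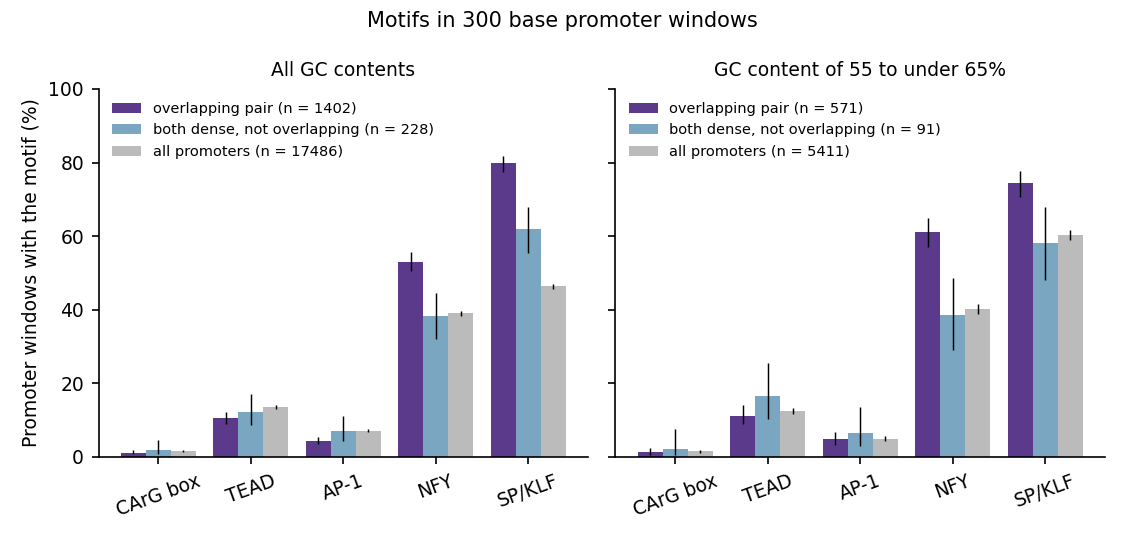
Share of 300 base promoter windows (%) with each motif, for genes with an overlapping promoter pair, genes with dense but not overlapping T and S promoter regions, and all promoters, over all GC contents and at 55 to under 65%; error bars are 95% Wilson intervals. NFY and SP/KLF stand higher at overlapping pairs in both panels, and the CArG box, TEAD and AP-1 do not.

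By gene, 16777 of the 24527 genes with a region in either table (68.4%) had a dense T region and 9663 (39.4%) a dense S region. Both were found at 7588 genes, which was 45.2% of the T genes and 78.5% of the S genes. An overlapping pair was found at 3448 genes, 14.1% of all genes with a region, and the other 4140 genes with both had their regions apart. Their nearest T and S regions lay a median of 5250 bp from each other, and 29.9% of these genes had them within 2 kb. At promoters the sets met more closely: 2157 genes had a dense promoter region in both, and 1824 of them had an overlapping promoter pair. Gene counts favour long genes, which hold more regions, and the gene lists below are described only by their counts against the 14.1%.

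In the list of SRF targets and cytoskeletal genes, 6 of the 27 genes with a region had a pair. They were Vcl, Zyx, Myh9, Cald1, Fhl2 and Tpm2, which encode an adhesion protein, a LIM protein of stress fibres, nonmuscle myosin, caldesmon, a LIM cofactor and a tropomyosin. A dense T region was found at 24 and a dense S region at 13 of the 27, beside 68.4% and 39.4% of all genes. At the Zyx start (ENSMUSG00000029860), chromosome 6, 42326401 to 42326930, the T set had 107, 182 and 120 reads with NC, TGF-b and siRNA, and the S set had 24, 46 and 36. At the Myh9 promoter (ENSMUSG00000022443), chromosome 15, 77726368 to 77726820, they were 105, 130 and 87 in T and 7, 28 and 37 in S. At the Vcl promoter (ENSMUSG00000021823), chromosome 14, 20979024 to 20979503, they were 31, 76 and 36 in T and 13, 29 and 20 in S. In these unadjusted counts the Vcl value was highest with TGF-b in both sets. The log2 ratio of siRNA over TGF-b density was -0.57 (-1.16 to -0.03) in T. In S it was -0.47 (-1.30 to 0.32), an interval that covers both signs, so no order of treatments is read from S. Fhl2, at its start site, had 13, 28 and 14 reads in T and 21, 23 and 14 in S. Tpm2, in an intron, had 14 and 32 reads with TGF-b and siRNA in T and 8 and 13 in S. Flna and Myl6 had dense T regions without a pair.

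Other genes of this list had both sets near, but not on, each other. Acta2 (ENSMUSG00000035783), which encodes smooth muscle actin, had 1 dense T region in its 5′ UTR, chromosome 19, 34232681 to 34232803, with 35 NC, 36 TGF-b and 8 siRNA reads, and 1 dense S region in its promoter, 34233304 to 34233439, with 7 TGF-b and 17 siRNA reads. The centres of the 2 regions were 629 bp apart, so their 2 kb windows overlapped although the regions did not. The nearest regions were 510 bp apart at Actg1, a cytoplasmic actin, and 233 bp at Junb, an AP-1 subunit. Srf itself had its nearest dense T and S regions 30013 bp apart. Its dense T region, in an exon, had 12 and 24 reads with TGF-b and siRNA, and its dense S region had 7, 11 and 9 and lay upstream of Srf in an intron of another gene.

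In the list of YAP/TAZ targets and partners, 7 of 30 genes had a pair: Ankrd1, Amot, Amotl2, Myof, Tead1, Tead3 and Tgfb2. At the Ankrd1 promoter (ENSMUSG00000024803), chromosome 19, 36097169 to 36097564, the reads were 52 with NC, 25 with TGF-b and 32 with siRNA in T, and 17 and 28 with TGF-b and siRNA in S, so that the T count was highest with NC. The log2 ratio was 0.82 (0.08 to 1.58) in T and 0.74 (-0.08 to 1.63) in S, on the scale set by the normalization line. Amot and Amotl2 encode angiomotins that hold YAP and TAZ outside the nucleus. At the start of Amotl2 (ENSMUSG00000032531), chromosome 9, 102594738 to 102595032, T had 64, 84 and 30 reads and S had 9, 15 and 16. At Amot, T had 1, 43 and 17 reads, and S had 8 with TGF-b and 21 with siRNA. In the Tead3 intron, T had 94, 38 and 23 reads and S had 5, 27 and 15.

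Other genes of this list had both sets apart, or T alone. At Ccn2 (ENSMUSG00000019997), the matricellular protein that is a standard YAP/TAZ target, an exon region on chromosome 10, 24471483 to 24471791, had 150, 115 and 54 reads with no dense S region over it. Wwtr1, which encodes TAZ, had a T region at its promoter with 41, 65 and 25 reads, and its nearest dense S region was 3696 bp from a dense T region. Yap1 had a dense T region in exon 2 with 0 TGF-b and 30 siRNA reads, and a dense S region in exon 1 with 19 and 14, 2797 bp apart.

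In the TGF-b and SMAD list, 6 of 18 genes had a pair: Ski, Smad2, Tgfbr1, Tgfbr3, Ltbp1 and Tgfb2. The list runs from ligand to receptors to signal. At Tgfb2, a ligand, a pair upstream of it, in an intron of another gene on chromosome 1, 186454294 to 186454429, had 9 and 23 reads with TGF-b and siRNA in T, and 7, 3 and 12 reads in S. The log2 ratio there was 1.73 (0.73 to 2.90) in T and 1.82 (0.40 to 3.84) in S. At the promoter of Tgfbr1, the type I receptor, T had 24, 50 and 33 reads and S had 12, 29 and 16. At Smad2, a receptor-activated SMAD, T had 13, 66 and 13 reads and S had 15, 21 and 40. At Ski, a repressor of SMADs, chromosome 4, 155307526 to 155307989, T had 29, 158 and 41 reads, and S had 18 with TGF-b and 26 with siRNA. For Ski and Smad2 the log2 ratio was -1.43 (-1.95 to -0.96) and -1.78 (-2.71 to -1.02) in T, and 0.56 (-0.27 to 1.44) and 0.93 (0.21 to 1.72) in S. The pair of Ski and that of Smad2 were both promoters.

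Of 20 matrix and myofibroblast genes with a region, 14 had a dense T region, 6 a dense S region and 1 a pair. Over all genes the shares were 68.4%, 39.4% and 14.1%, and the differences were not tested. The pair was that of Mmp2, a gelatinase, in an intron with 37, 17 and 23 reads in T and 4, 8 and 10 in S. Thbs1 and Lox were T only in the regions named here, with 57 and 72 reads with TGF-b and siRNA at the Thbs1 promoter. In the AP-1 list, 2 of 6 genes had a pair. They were Atf3, with 57, 76 and 47 reads in T and 24 and 32 with TGF-b and siRNA in S, and Fosl2, with 35, 80 and 20 in T and 6, 22 and 12 in S. Jun, whose promoter had 29, 69 and 27 T reads, had no pair.

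Among housekeeping gene families, a pair was found at 12 of 59 cytosolic ribosomal genes (20.3%), 11 of 56 mitochondrial ribosomal genes (19.6%), 9 of 45 proteasome genes, 15 of 59 chaperone genes (25.4%) and 5 of 38 complex I genes (13.2%), beside 14.1% of all genes with a region. A promoter pair was found at 11, 6, 5, 9 and 1 of these, which was 61.5% of their 52 genes with a pair (48.0 to 73.5), beside 52.9% of all genes with a pair, a share within that interval. At Rps19 the 5′ UTR pair had 52, 38 and 37 reads in T and 8, 31 and 33 in S. At the Rpl26 promoter it had 6 and 20 reads with TGF-b and siRNA in T and 10 and 17 in S. At the Mrps14 promoter T had 32, 49 and 50 reads and S had 11, 14 and 29. At Psmd3, T had 70, 52 and 26 reads and S had 16, 27 and 35. At Ndufs6, a complex I subunit, T had 6, 22 and 12 reads and S had 14, 6 and 27.

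The chaperone promoters held some of the deeper pairs of these lists. At the Hsp90b1 promoter (ENSMUSG00000020048), chromosome 10, 86541274 to 86541662, T had 76, 112 and 40 reads and S had 12, 31 and 49. The log2 ratio was -0.98 (-1.52 to -0.48) in T and 0.66 (0.04 to 1.32) in S. At Dnajb1, an Hsp70 cochaperone, T had 49, 101 and 27 reads and S had 18, 39 and 31. At Dnajb5 T had 55, 85 and 34 reads, and S had 12 with TGF-b and 29 with siRNA. At Hsph1 T had 28, 40 and 47 reads, and S had 27 and 33. Of 31 histone genes 2 had a pair, H2az2 and H3f3b, and of 4 Ragulator genes only Lamtor4, with 1, 45 and 14 reads in T and 12 and 24 with TGF-b and siRNA in S.

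Long neuronal genes and chemosensory receptor genes are not known as targets of either factor, and the former are long. Of 20 long neuronal genes, 20 had a dense T region, 19 a dense S region and 7 a pair (35.0%), but 1 a promoter pair, that of Nrxn3. At the Nrxn3 promoter T had 8, 34 and 16 reads and S had 26, 28 and 49. The other named pairs of this list lay in introns at low counts, such as Pcdh15 with 8, 1 and 13 reads in T and 12, 15 and 13 in S. Of 617 chemosensory receptor genes with a region, 187 had a dense T region, 74 a dense S region and 2 a pair, Or51e1 and Or6b3. Over all genes with a region, 68.4% had a dense T region, 39.4% a dense S region and 14.1% a pair. The differences of these 2 lists from those shares were not tested. Among marker genes of cell types a pair was found at 1 of 8 fibroblast genes with a region (Ddr2), 1 of 5 cardiomyocyte genes (Ttn), 0 of 6 endothelial genes and 0 of 4 macrophage genes. These lists are too short to set against the 14.1% of all genes.

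Tet3 and Piezo2, which the study manipulated, and the related channel gene Piezo1 were also looked up, and of these Piezo2 had a pair. Tet3, an enzyme that oxidizes methylated cytosine, had 1 dense T region, in an intron with 2 and 10 reads with TGF-b and siRNA, and no S region. Piezo1 had dense T regions and no dense S region, and its promoter T region had 22 and 21 reads. Piezo2, a mechanosensitive channel, had 1 pair, in an intron, with 33, 26 and 19 reads in T and 8 and 14 with TGF-b and siRNA in S.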

How the data were processed

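The data were 4 tables of CUT&Tag regions, each comparing 2 libraries of 1 set, and the 2 tables of TGF-b against siRNA chose the members. The deposited value was a normalized read density, a signal that the authors gave for a 2 kb window on each region: reads plus 1, halved, and shifted along a line fitted between the 2 libraries. Undoing this line gave whole reads within 0.1 read for 99.98% or more of regions, and these are the reads printed. Library totals are not given in the sources used here. The submitters' processing notes list BWA 0.7.12 and mm10, and the study's methods describe Bowtie2 and GRCm39; gene positions and scaffold names in the tables are those of GRCm39. Columns of the authors' own fold changes and p-values were not used. 0 columns belonged to other samples.

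Regions were compared as half-open intervals in Python 3.11.15 with pandas 2.3.3 and SciPy 1.17.1, and the overlap code was tested on simulated data against bedtools 2.31.1. Intervals of shares are Wilson intervals at 95%, and those of a log2 ratio come from the Wilson interval of the siRNA share of the reads of the 2 libraries. No test across regions was possible with 1 library per group. The members and gene lists were chosen with earlier results of these data known. Named regions were the 10 pairs with the highest minimum of the 2 siRNA densities, under 500 reads and with 1 gene in both sets, 1 per gene; the 6 densest regions of 1 set under 500 reads with a named gene, 1 per gene; up to 6 list members with a pair and 3 without; and the genes of the study. Alternatives were densities of 3 and 10, 10 reads, an overlap of 50%, regions the caller found in the siRNA library, a T list as long as the S list, autosomes only, regions under 500 reads, a start within 1 kb, and an overlap of 2 kb windows. The restriction of the promoter windows to protein-coding genes was chosen after the share of matched genes was seen.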

Additional observations from a re-analysis of the deposited data

How the results depend on the processing

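In every setting tried, promoters were a larger share of overlapping regions than of T only or S only regions. At a density of at least 10, 1914 T regions were in a pair, which was 8.50% of the dense T and 40.5% of the dense S regions, promoters were 60.3% of overlapping, 13.7% of T only and 31.8% of S only regions, 1977 genes had both sets, and the median log2 ratio of overlapping T regions turned from 0.06 to -0.031. At a density of at least 3 the shares were 5.502% of T and 16.05% of S, with promoters at 39.5%, 6.55% and 6.67%. With at least 10 reads in place of the density, the share of T was 7.67% and promoters were 46.7%, 8.55% and 11.4%. With an overlap of 50% of the shorter region, the shares were 5.97% and 18.8% and overlapping promoters 47.0%. With only regions that the caller found in the siRNA library, 3352 T regions were in a pair, 5.09% of T and 17.4% of S, with promoters at 7.09% of T only and 11.8% of S only regions. With the densest T regions, as many as the S regions, 3309 were in a pair, 13.7% of T and 13.6% of S, with promoters at 49.6%, 11.9% and 11.8% and 4884 genes with both. Overlap of the 2 kb windows, chosen after seeing the data, gave 9828 T regions, 12.9% of T and 33.7% of S, with promoters at 30.9%, 7.13% and 9.14%. A start within 1 kb in place of the class gave 56.6%, 10.7% and 14.8%. The cause of these shifts was not tested. With autosomes only or without regions of 500 reads or more, the shares and medians stayed within their counting intervals. The median log2 ratio of overlapping T regions was 0.46 with 2 kb windows, 0.18 with the densest T list, 0.15 with called regions and 0.02 with the 50% overlap, and that of S only regions was 0.11 at a density of at least 3, against 0.38. Motif shares of regions were not run, because no genome of the regions' build was used.

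No paired analysis was possible because each group held 1 library and the results come from no test. Near the threshold a region rests on 8 or 9 reads, so membership there is within counting error. Whether a region without a partner was missed for depth was not tested. Antibody, siRNA and library cannot be told apart between the sets. The annotation gives 1 gene per region, and neighbouring regions share windows.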
